A study of Rattus norvegicus with 10 samples.

Results

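Liver expression was compared in 10 male Sprague-Dawley rats, which are outbred laboratory animals, for 10 genes of fatty acid synthesis, among 14217 genes that had a probe set naming them alone. The genes were Acly, Acaca, Fasn, Elovl6, Elovl5, Me1, Thrsp, Pnpla3, Srebf1 and Mlxipl. They were measured by 20 of the 31042 probe sets on the arrays, and every probe set whose annotation named exactly 1 of these genes was kept. The 10 genes were chosen on values of these same animals, namely their variation between livers and their exposed minus control differences. Both are therefore given here as description.

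The exposed group held 5 rats exposed to effluent of bulk drug industries, and the control group held 5 rats. The rats of both groups were males of the same strain, and the labels name no other treatment. RNA of each liver was hybridised to its own Affymetrix 3' expression array, so that each value comes from 1 animal. The labels give no dose, length of exposure, age, feeding state or hour of sampling for either group. Each probe set has a log2 expression value per liver, and on this scale a difference of 1 is a 2-fold difference. Levels of different probe sets are not read as amounts of transcript against one another, because probes differ in brightness. They are only placed against the median probe set or used to pick the brightest probe set of a gene.

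In liver, carbon from sugar leaves the mitochondria as citrate and is built into fatty acids in the cytosol. Feeding and insulin raise the genes of this route through the transcription factors SREBP-1c and ChREBP, and fasting lowers them, so their transcripts are known for large swings with the last meal. Acly, Acaca and Fasn encode the successive enzymes that lead to palmitate, and the elongase Elovl6 extends its chain. The elongase Elovl5 extends polyunsaturated fatty acids, Me1 supplies reducing power, and Srebf1 and Mlxipl encode the factors themselves.

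The medians of the arrays were 5.43 to 5.49, and any 2 arrays had a Pearson r of 0.991 to 0.996. In the limma fit over all 31042 probe sets 0 passed the adjusted threshold of 0.05 (0.0%; lowest adjusted p 0.879), and 3.07% were higher in exposed livers at an unadjusted p under 0.05. All 11 measured hepatocyte markers lay above the median probe set, with list means of 14.19 to 14.21 in exposed livers and 14.17 to 14.24 in control livers. Of 8 measured fat cell markers 5 lay above the median probe set of 5.47, among them Lipe, the hormone-sensitive lipase, at 8.20 in exposed and 8.05 in control livers. The hormones adiponectin (Adipoq) and leptin (Lep) lay below it, at 4.47 and 4.27 in exposed livers and 4.37 and 4.27 in control livers. RNA quality, taken as the 3' to 5' log2 ratio of Gapdh and beta-actin, averaged 0.56 ± 0.04 in exposed livers and 0.61 ± 0.08 in control livers (SD, n = 5 each; two-sided exact permutation p 0.278). A higher ratio means less 5' signal for the same 3' signal, which is the direction of poorer RNA. Since these are bulk samples, fewer cells of a type and less RNA per cell cannot be told apart.

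The start regions of these genes show what several of the genes share in sequence. RefSeq promoter windows for assembly GRCr8 were on hand for 7 of the 10 genes, in 9 windows of 250 bases before a start site, with more than 1 start for Srebf1 and Mlxipl. They were searched on both strands for the NF-Y box CCAAT, the GC box GGGCGG, the E-box CACGTG and the sterol element TCACNCCAC, which are the letters read by the factors NF-Y, Sp1, ChREBP or USF, and SREBP. Windows are shown for the 3 genes Acly, Elovl5 and Pnpla3, whose values moved together in these livers, for Thrsp, and for the downstream start of Srebf1. Elovl5 was added after its values were seen. Capitals mark the NF-Y box, which reads ATTGG where it lies on the opposite strand.
Acly (chr10:85963632-85963881, minus strand): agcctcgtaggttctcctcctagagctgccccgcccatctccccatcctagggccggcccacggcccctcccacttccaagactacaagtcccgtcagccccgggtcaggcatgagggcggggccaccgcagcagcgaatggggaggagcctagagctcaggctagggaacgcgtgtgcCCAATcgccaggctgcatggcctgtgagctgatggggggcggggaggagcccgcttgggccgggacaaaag
Elovl5 (chr8:87670914-87671163, plus strand): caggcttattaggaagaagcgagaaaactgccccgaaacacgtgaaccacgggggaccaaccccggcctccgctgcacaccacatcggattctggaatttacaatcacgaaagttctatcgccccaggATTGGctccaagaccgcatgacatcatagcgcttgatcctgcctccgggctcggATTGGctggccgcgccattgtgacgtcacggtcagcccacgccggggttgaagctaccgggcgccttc
Pnpla3 (chr7:117173278-117173484, plus strand): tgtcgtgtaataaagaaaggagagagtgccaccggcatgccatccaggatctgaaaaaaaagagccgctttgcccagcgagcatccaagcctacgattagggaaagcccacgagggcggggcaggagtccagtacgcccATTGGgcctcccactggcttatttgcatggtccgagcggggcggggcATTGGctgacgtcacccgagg
Thrsp (chr1:161138965-161139214, minus strand): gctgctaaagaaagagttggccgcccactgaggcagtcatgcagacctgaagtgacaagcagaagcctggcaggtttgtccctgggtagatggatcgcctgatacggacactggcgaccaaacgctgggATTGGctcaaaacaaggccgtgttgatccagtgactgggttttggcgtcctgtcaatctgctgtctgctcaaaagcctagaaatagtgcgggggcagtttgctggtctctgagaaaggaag
Srebf1 (chr10:45519011-45519260, minus strand): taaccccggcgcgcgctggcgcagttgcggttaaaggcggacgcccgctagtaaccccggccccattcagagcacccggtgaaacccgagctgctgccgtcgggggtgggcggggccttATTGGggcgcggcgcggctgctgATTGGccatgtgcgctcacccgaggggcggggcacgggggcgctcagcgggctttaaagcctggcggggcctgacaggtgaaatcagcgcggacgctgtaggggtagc

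The Acly and Srebf1 windows lie inside the span of the annotated gene, which reaches farther upstream. The Pnpla3 window is shown only to where the annotated gene begins. The last 43 bases before its start site are left out, and its distances below count them. An NF-Y box was found in 6 of the 7 genes, all but Me1, and in 8 of their 9 windows. Of 33469 RefSeq rat promoter windows of the same length 34.0% held it. The Mlxipl windows overlap almost fully. The box began 71 bases before the start in Acly, 122 and 68 in Elovl5, 111 and 64 in Pnpla3, 121 in Thrsp, and 131 and 108 in the downstream start of Srebf1. Only the Acly box among these lies on the strand of the gene. The GC box was found in 5 of 7 genes and 6 of 9 windows, against 30.5% of all windows. The E-box was found in 1 of 7 genes, Elovl5, and 1 of 9 windows, against 5.59%. The sterol element was found in 0 of 7 genes and 0 of 9 windows, against 0.974%. At so low a share its absence from 9 windows says little. No window was on hand for Fasn, Acaca and Elovl6, so none of the motifs was searched there. No match of a motif overlapped a match of another. These are matches of letters in a single window per start and not evidence of binding.

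Acly (chr10:85912402-85964605), ATP citrate lyase, cleaves citrate into the acetyl-CoA from which fatty acids are built. It read 11.56, 11.55, 11.48, 10.95 and 11.55 in exposed livers 1 to 5, against 10.90, 11.41, 11.30, 10.82 and 11.07 in control livers 1 to 5. Of the exposed animals 4 stood above all controls and exposed animal 4 stood below 3 of the controls, so the groups overlapped. Means were 11.42 ± 0.26 in exposed and 11.10 ± 0.26 in control livers (SD, n = 5 each). The difference was 0.32 ± 0.14 (SE; 95% interval 0.01 to 0.62), or 1.24-fold, and it ranged from 0.24 without control animal 4 to 0.43 without exposed animal 4.

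Acaca (chr10:69511627-69773888), acetyl-CoA carboxylase alpha, makes malonyl-CoA in the committed step. It read 9.00, 9.12, 9.61, 8.87 and 9.10 in exposed livers, against 8.55, 9.04, 9.26, 9.08 and 9.08 in control livers. Apart from exposed animal 3 at the top and control animal 1 at the bottom, the animals of both groups lay close together. The difference was 0.14 ± 0.15 (SE; -0.18 to 0.46) and was 0.02 without exposed animal 3. Its other probe set gave 0.16 ± 0.11, and the pair followed each other across animals with a Pearson r of 0.84.

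Fasn (chr10:106570415-106588581), fatty acid synthase, assembles palmitate from acetyl-CoA and malonyl-CoA. It read 9.39, 9.69, 10.23, 9.31 and 9.82 in exposed livers, against 9.07, 9.63, 9.60, 9.24 and 9.35 in control livers. Exposed animals 2, 3 and 5 stood above every control, exposed animals 1 and 4 stood among the controls, and the span from lowest to highest liver was 2.24-fold. The difference was 0.31 ± 0.16 (SE; -0.05 to 0.66), or 1.24-fold. It was 0.17 without exposed animal 3. The other Fasn probe set gave 0.22 ± 0.17 and tracked the first across animals with r = 0.98.

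**Figure D1:**
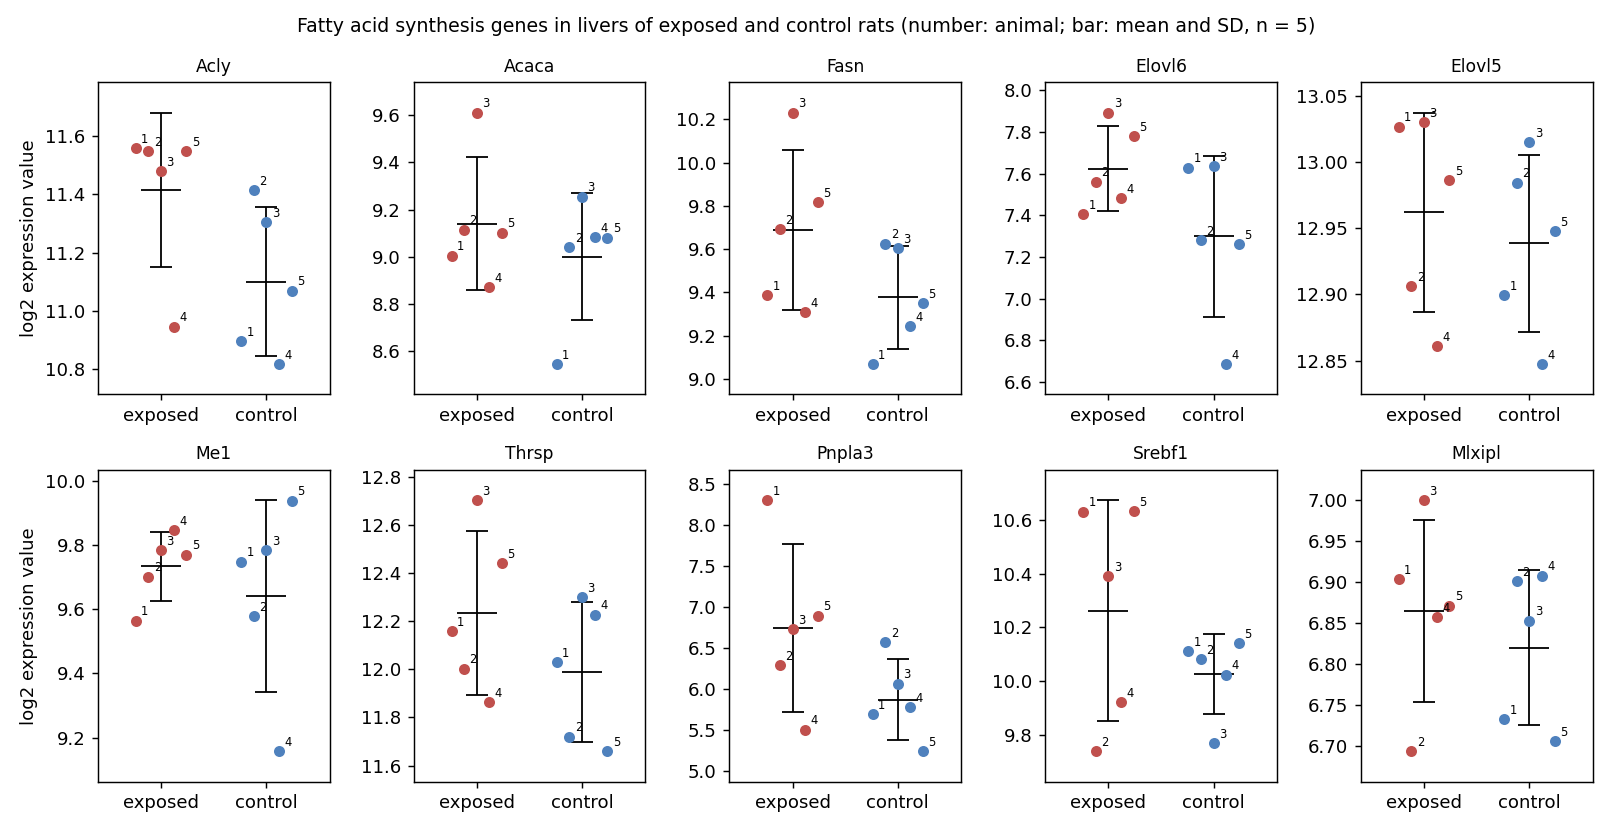
Log2 expression value (y axis, its own scale in each panel) of the 10 genes in exposed livers (left, red) and control livers (right, blue); points are animals with their number, bars are group means with SD (n = 5 each). Groups overlap in all 10 panels, with 4 exposed animals above all controls for Acly and exposed animal 1 far above the other animals for Pnpla3.

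The elongases differed from each other in how much they varied. Elovl6 (chr2:220738095-220845528) extends palmitate to stearate and is a textbook target of SREBP-1c. It read 7.40, 7.56, 7.89, 7.48 and 7.78 in exposed livers, against 7.63, 7.28, 7.64, 6.69 and 7.26 in control livers. Control animal 4 was the lowest by a wide margin, and 3 exposed animals lay below the highest controls. The difference was 0.33 ± 0.16 (SE; -0.03 to 0.68) and was 0.17 without control animal 4. The other Elovl6 probe set, whose mean lay below the median probe set, gave 0.12 ± 0.18.

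Elovl5 (chr8:87671164-87737618), which extends polyunsaturated fatty acids, varied little on its brighter probe set. It read 13.03, 12.91, 13.03, 12.86 and 12.99 in exposed livers, against 12.90, 12.98, 13.02, 12.85 and 12.95 in control livers. The groups lay on top of each other, and the span over all livers was 1.14-fold. The difference was 0.02 ± 0.06 (SE; -0.11 to 0.15), whose upper bound is a 1.11-fold excess in exposed livers. The other Elovl5 probe set gave 0.10 ± 0.10, spanned 1.46-fold over the livers and had r = 0.49 with the first.

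Me1 (chr8:96429057-96540244), cytosolic malic enzyme, makes NADPH for the synthase. It read 9.56, 9.70, 9.78, 9.85 and 9.77 in exposed livers, against 9.75, 9.58, 9.78, 9.16 and 9.94 in control livers. No exposed animal stood above all controls, and control animal 4 was again far below the rest. The difference was 0.09 ± 0.12 (SE), and it turned to -0.03 without control animal 4. The other Me1 probe set did likewise, at 0.04 ± 0.17 with all animals and -0.14 without control animal 4. The probe sets of Me1 had r = 0.58 but a Spearman rho of 0.13, and control animal 4 was the lowest on both.

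Thrsp (chr1:161134640-161138964) encodes a small protein that promotes lipogenesis and is known for its response to thyroid hormone and carbohydrate. It read 12.16, 12.00, 12.70, 11.86 and 12.44 in exposed livers, against 12.03, 11.72, 12.30, 12.23 and 11.66 in control livers. Exposed animals 3 and 5 stood above all controls and exposed animal 4 stood in the lower part of the control range. The difference was 0.25 ± 0.17 (SE; -0.11 to 0.61), or 1.19-fold, and was 0.13 without exposed animal 3. Its 3 probe sets gave differences between 0.25 and 0.26 and correlated with one another at 0.99 to 1.00.

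Pnpla3 (chr7:117173485-117194065), a lipid droplet protein that SREBP-1c and ChREBP are known to induce with carbohydrate feeding, varied most. It read 8.30, 6.28, 6.72, 5.50 and 6.89 in exposed livers, against 5.69, 6.57, 6.06, 5.78 and 5.24 in control livers. Exposed animal 1 stood far above all others, exposed animals 3 and 5 stood above every control, and exposed animal 4 stood above control animal 5 alone. From the lowest to the highest liver the span was 8.38-fold. Means were 6.74 ± 1.03 in exposed and 5.87 ± 0.49 in control livers (SD, n = 5 each). The difference was 0.87 ± 0.41 (SE; -0.01 to 1.76), or 1.83-fold, and was 0.48 without exposed animal 1.

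The other Pnpla3 probe sets placed exposed animal 1 highest too, at different spans. The more variable of these read 8.70, 6.33, 6.88, 5.11 and 7.06 in exposed livers, against 5.34, 5.91, 5.99, 5.32 and 4.42 in control livers. It spanned 19.5-fold and differed by 1.42 ± 0.52 (SE; 0.30 to 2.54), or 0.95 without exposed animal 1. The remaining probe set read 6.20, 5.24, 5.43, 4.89 and 5.47 in exposed livers, against 5.05, 5.14, 5.02, 4.65 and 4.93 in control livers. On both of these, all exposed animals but animal 4 stood above every control. On the remaining probe set the difference was 0.49 ± 0.19 (SE), or 0.30 without exposed animal 1. Pearson r between Pnpla3 probe sets lay between 0.89 and 0.98 with group means removed.

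**Figure D2:**
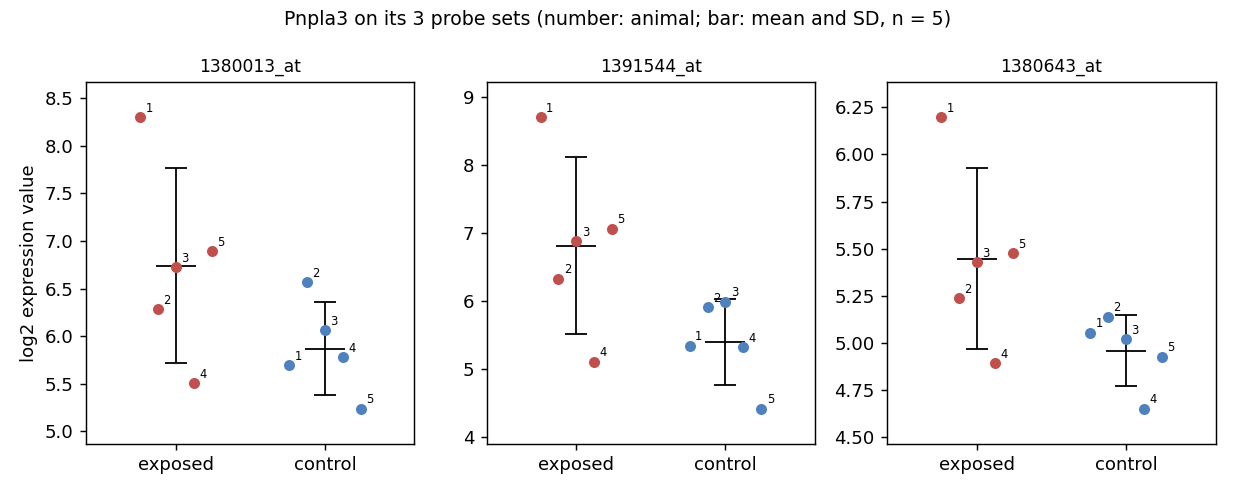
Log2 expression value (y axis) of Pnpla3 on its 3 probe sets in exposed livers (left, red) and control livers (right, blue); numbers are animals and bars are group means with SD (n = 5 each). Exposed animal 1 is the highest on each probe set, and the differences are 0.87, 1.42 and 0.49 from left to right.

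Both transcription factors overlapped between groups. Srebf1 (chr10:45507152-45529164) encodes SREBP-1, the factor through which insulin acts on the enzymes above. It read 10.63, 9.74, 10.39, 9.92 and 10.63 in exposed livers, against 10.11, 10.08, 9.77, 10.03 and 10.14 in control livers. Exposed livers lay on both sides of the controls, 3 above and 2 in the lower part of the control range or below it, with an SD of 0.41 in exposed and 0.15 in control livers. The difference was 0.24 ± 0.16 (SE; -0.12 to 0.59), and the other Srebf1 probe set, with r = 0.97 to the first, gave 0.17 ± 0.14. Without exposed animal 5 the difference was 0.14, without exposed animal 2 it was 0.37, and the other probe set gave 0.07 without exposed animal 1. Which transcript of the gene each probe set reads is not given in the sources used here.

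Mlxipl (chr12:27178158-27213675) encodes ChREBP, the factor that responds to sugar. It read 6.90, 6.69, 7.00, 6.86 and 6.87 in exposed livers, against 6.73, 6.90, 6.85, 6.91 and 6.71 in control livers. Exposed animal 3 was the highest and exposed animal 2 the lowest of all. The difference was 0.05 ± 0.07 (SE; -0.11 to 0.20). Leaving out exposed animal 3 gave 0.01, and leaving out exposed animal 2 gave 0.09. Both factors act also through changes to the protein, which arrays do not measure.

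Exposed minus control values pointed the same way for the whole group without any gene passing the test. All 20 probe sets had a higher mean in exposed livers, as did 52.0% of all probe sets, and the median difference of the 10 genes was 0.24, against -0.0021 over all genes. In the limma fit over all probe sets 0 of 20 passed (background 0.0%), with Benjamini-Hochberg adjusted p values between 0.879 and 0.986. At an unadjusted p under 0.05 stood 3 of 20, namely Acly and a pair of Pnpla3 probe sets (background 3.07% higher in exposed livers). Groups did not overlap for 0 of 20 (background 0.892%). The genes were chosen with these differences known, so the shared direction is a description of the choice as well as of the livers.

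The order of the differences was Pnpla3 at 0.87, Elovl6 at 0.33, Acly at 0.32, Fasn at 0.31, Thrsp at 0.25, Srebf1 at 0.24, Acaca at 0.14, Me1 at 0.09, Mlxipl at 0.05 and Elovl5 at 0.02. The intervals of neighbours in this order overlap throughout, and none of the gaps between neighbours was tested. Of the 10 intervals only that of Acly lies wholly above 0. The upper bounds run from 1.11-fold for Elovl5 to 3.39-fold for Pnpla3, so an excess of 1.5-fold lies within the interval for Acly, Fasn, Elovl6, Thrsp, Pnpla3 and Srebf1. Within groups the RNA quality ratio had r between -0.41 (Pnpla3) and 0.43 (Acaca) with the 10 genes, and all 20 differences stayed above 0 with the ratio as a covariate. The difference was then 0.62 for Pnpla3, 0.29 for Acly, 0.33 for Fasn and 0.25 for Elovl6. It moved by over 1.5 times for Acaca, to 0.23, for Srebf1, to 0.15, and for Mlxipl, to 0.03. The same held on the other probe sets of Elovl5, to 0.0055, of Me1, to 0.0079, and of Srebf1, from 0.17 to 0.09. It also held on the dimmest Thrsp probe set, from 0.25 to 0.16.

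**Figure D3:**
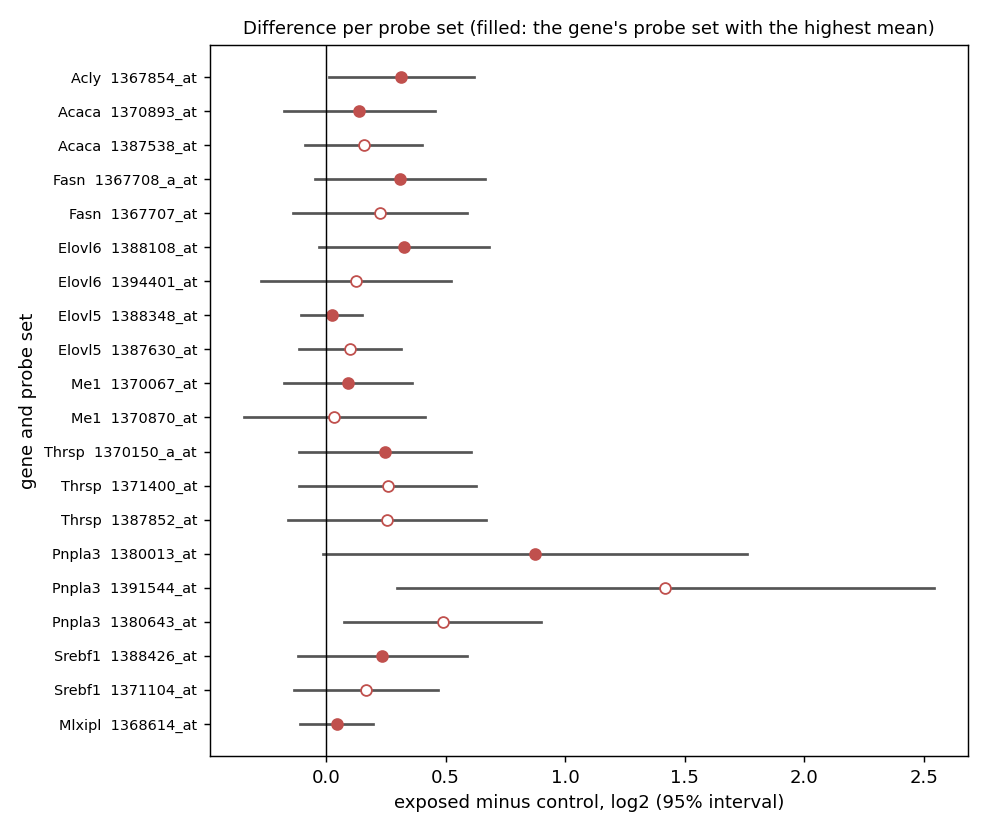
Exposed minus control difference (x axis, log2) with its 95% interval from the limma fit for each of the 20 probe sets (y axis); filled points are the probe set with the highest mean of each gene, open points the others. All points lie right of 0, and the intervals of Acly and of a pair of Pnpla3 probe sets leave out 0.

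Within each group the livers differed from one another in how many of the 10 genes they held high. To show this, the mean of an animal's own group was taken from each value. Exposed animal 3 stood above its group mean for 9 genes, all but Pnpla3, and exposed animal 5 for 9, all but Acaca. Exposed animal 4 stood above its group mean for 1 gene, Me1, and exposed animal 2 for 2 genes, Acly and Fasn. Among controls, animal 3 stood above for 9 genes, all but Srebf1, animal 2 for 7 and animal 4 for 3. Exposed animal 1, with 5 genes above, combined the highest Pnpla3 deviation, 1.56, with low values of Fasn (-0.30) and Elovl6 (-0.22).

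Mean deviations over the 10 genes in exposed livers 1 to 5 were 0.13, -0.14, 0.22, -0.32 and 0.12, against -0.07, 0.11, 0.15, -0.13 and -0.07 in control livers 1 to 5. Exposed animals 3 and 4 therefore marked the ends of the range. Pnpla3 weighs heavily in such a mean, as it held 52.0% of the summed squared deviations of the 10 genes. Without Pnpla3 exposed animal 1 had a mean deviation of -0.03. With each gene scaled to the same variance, the first principal component held 41.8% and the second 22.7% of the variance between animals.

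**Figure D4:**
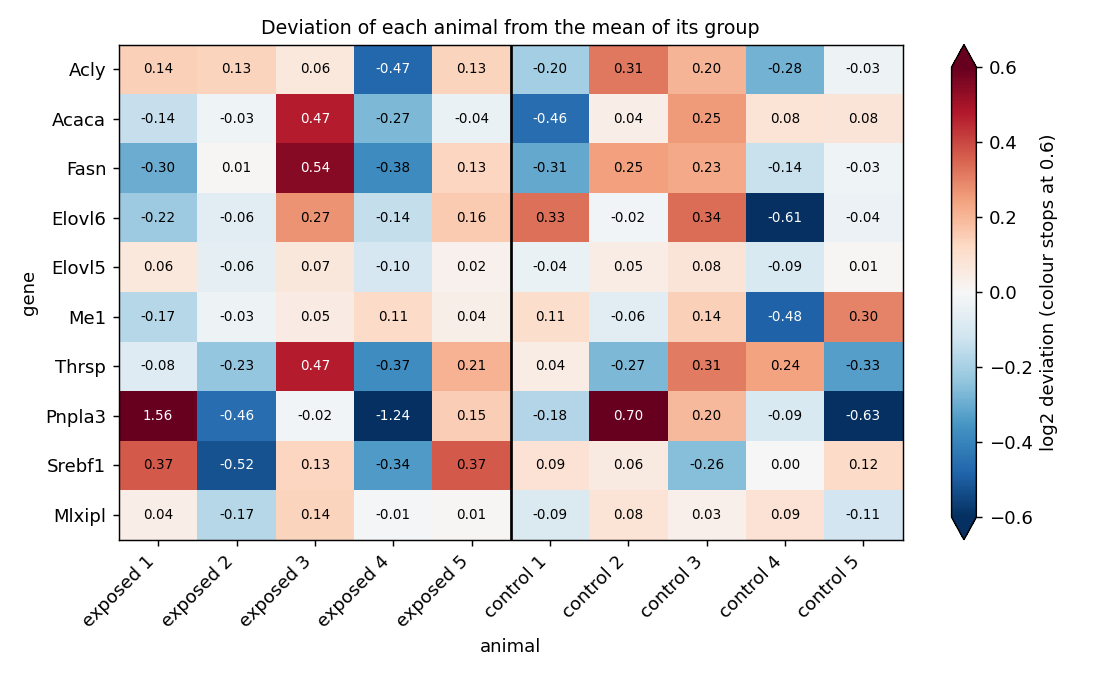
Deviation of each liver from the mean of its own group (log2, colour and number) for the 10 genes (rows) in exposed animals (left of the line) and control animals (right). Exposed animals 3 and 5 and control animal 3 are above their group mean for 9 of 10 genes, and exposed animal 4 is below for 9 of 10.

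The within-group SD exceeded 0.13, the median of the 15521 probe sets above the median level, for 8 of 10 genes, the exceptions being Elovl5 at 0.07, with 0.17 on its other probe set, and Mlxipl at 0.10. It was 0.80 for Pnpla3, and between 0.22 and 0.32 for Acly, Acaca, Fasn, Elovl6, Me1, Thrsp and Srebf1. This spread sets the precision of every difference above.

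Over the 45 pairs of the 10 genes, Pearson r across the 10 livers had a median of 0.36, and the median Spearman rho was 0.43, with group means removed. For comparison, the median r over all pairs of 9666 genes was 0.0066. Among the 45 pairs 31.1% had r above 0.5, against 11.2% of all gene pairs, and 15.6% had r below 0, against 49.4%. The genes were chosen partly for varying together, and all pairs share the same 10 arrays and their normalization, so these values carry no p.

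The closest pair was Acaca and Fasn, the consecutive enzymes of palmitate synthesis, with r = 0.86 and rho = 0.75. It kept r = 0.68 without exposed animal 3 and control animal 1, the animals farthest from the median of Acaca. Acly followed Elovl5 (r = 0.81, rho = 0.73) and Pnpla3 (r = 0.66, rho = 0.77), and Elovl5 followed Pnpla3 (r = 0.68, rho = 0.76). Without both animals numbered 4, the farthest from the medians of Acly and of Elovl5, these were 0.53, 0.47 and 0.61. The small deviations of Elovl5 on its brighter probe set had r = 0.93 with the mean of the other 9 genes. That relation was computed on 1 of its 2 probe sets, which had r = 0.49 with each other.

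Several other relations rested on few animals. Elovl6 and Me1 had r = 0.74 with all animals and 0.22 without control animals 3 and 4. Fasn and Thrsp had r = 0.52, and 0.03 without exposed animals 3 and 4. Acaca and Mlxipl had r = 0.50, and -0.26 without exposed animal 3 and control animal 1. Thrsp and Acaca, in contrast, had r = 0.54 with all animals and 0.65 without exposed animal 3 and control animal 1.

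Relations of the factors' transcripts with the enzymes varied from gene to gene. Srebf1 had r = 0.08 with Fasn, 0.01 with Acaca and 0.04 with Elovl6, 0.60 with Pnpla3 and 0.49 with Elovl5. Without exposed animals 1 and 4 its r with Pnpla3 was 0.24. Mlxipl had r = 0.57 with Thrsp, 0.50 with Acaca and 0.44 with Pnpla3. Me1 had r = -0.09 with the mean of the other genes, and its r of -0.44 with Mlxipl was the lowest of all pairs with all animals. Without control animals 4 and 5 that r was -0.09, and the r of Me1 with Pnpla3 was -0.82, against -0.39 with all animals.

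**Figure D5:**
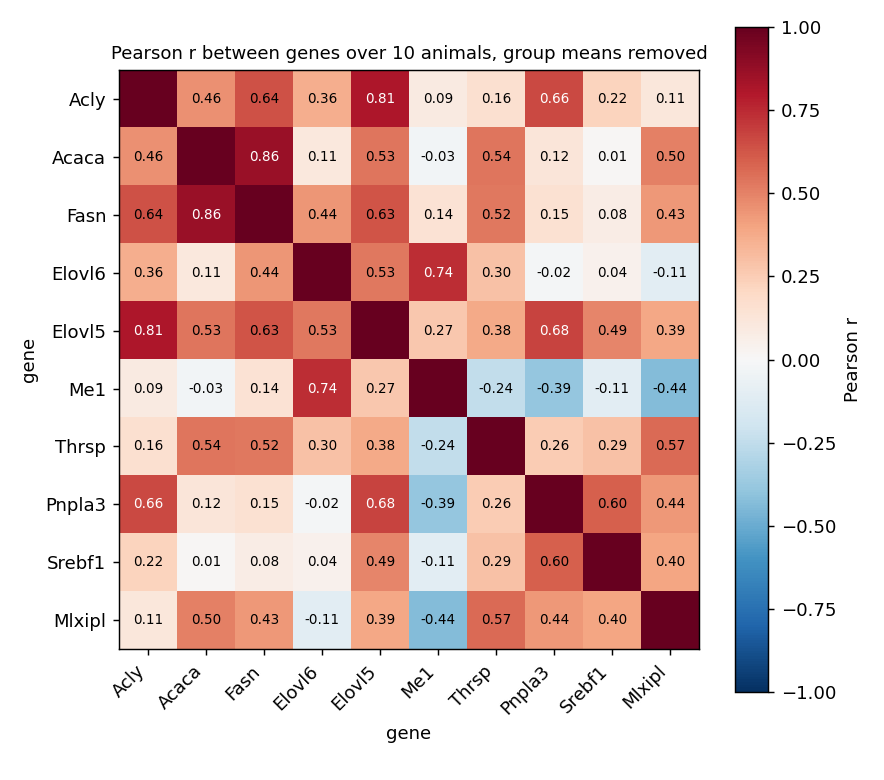
Pearson r (colour and number) between the 10 genes over the 10 livers with group means removed. Acaca with Fasn (0.86) and Acly with Elovl5 (0.81) are the highest, and the Me1 row holds the lowest value (-0.44).

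Fasn was set against 18 fixed genes outside the group, of which 14 were measured, in an exact permutation test over all 14400 orders of animals within groups. None of the 14 relations passed Benjamini-Hochberg adjustment (adjusted p 0.921 to 0.994), 0 had an unadjusted p under 0.05, and the smallest exact permutation p was 0.159, for Pdk4. By Spearman rho the lowest adjusted exact permutation p was 0.961. Among lipogenic neighbours, r was 0.22 for Scd, the stearoyl-CoA desaturase, 0.25 for the desaturase Fads1, 0.17 for Acss2, which makes acetyl-CoA from acetate, and -0.23 for Slc25a1, the citrate carrier. It was 0.29 for Pklr, the liver pyruvate kinase, -0.44 for Nr1h3, the oxysterol receptor LXR alpha, and -0.07 for Acacb, the carboxylase at mitochondria. Spearman rho for these 7 ran from -0.38 to 0.33.

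Among genes that fasting is known to raise, r with Fasn was -0.46 for Pdk4, which blocks the entry of pyruvate into the citric acid cycle, -0.22 for Cpt1a, the gate of fatty acid oxidation, 0.00 for Pck1 of gluconeogenesis and -0.04 for Igfbp1, which insulin represses. It was 0.01 for Insig1, which restrains SREBP processing, and -0.28 for Adipoq, with rho of these 6 between -0.33 and 0.20. Without exposed animals 3 and 4, the farthest from the median of Fasn, r was -0.29 for Pdk4, 0.08 for Cpt1a and -0.31 for Pklr.

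Some of these transcripts varied between livers as much as Fasn or more. Scd read 12.88, 12.76, 13.34, 12.78 and 12.83 in exposed livers, against 12.38, 11.85, 13.13, 13.01 and 12.80 in control livers. Exposed animal 3 was highest for Scd as for Fasn, while control animal 2 was the lowest for Scd and the highest control for Fasn. Dbp, an output of the circadian clock, read 7.28, 6.79, 8.65, 8.80 and 9.47 in exposed livers, against 5.80, 6.50, 6.97, 8.67 and 9.34 in control livers. It spanned 12.8-fold over the livers and had r = 0.12 with Fasn (rho 0.03). Against Acly, the same 14 genes gave adjusted exact permutation p values between 0.913 and 0.971, with r = 0.54 for Acss2 and -0.56 for Adipoq. Exposed minus control differences of the 14 genes ran from -0.10 for Pck1 to 0.75 for Dbp, and limma passed 0 of them (adjusted p 0.903 to 0.997).

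Lists of related genes held 0 genes past the test in either direction (limma, background 0.0%). Of 23 measured lipogenic enzymes and partners outside the 10 genes, 12 were higher and 11 lower in exposed livers, with a median difference of 0.02. The 3 with the smallest p were the desaturase Fads2 at 0.26 ± 0.13 (SE), Fads3 at -0.14 ± 0.08 and Mid1ip1, a partner of Thrsp, at 0.51 ± 0.27. Of 12 enzymes of NADPH supply 6 were higher and 6 lower, led by the malic enzyme Me2 at 0.24 ± 0.09, Aldh1l1 of folate metabolism at -0.19 ± 0.09 and Rpia of the pentose phosphate route at 0.12 ± 0.08. Of 13 genes of glycolysis and glucose sensing 8 were higher and 5 lower, led by the glucose transporter Slc2a2 at 0.19 ± 0.12, Pfkfb2, which tunes the rate of glycolysis, at 0.12 ± 0.09 and Pklr at 0.17 ± 0.14. Single animals moved several of these by over 1.5 times. Without exposed animal 5 Mid1ip1 differed by 0.30 and Aldh1l1 by -0.11, without exposed animal 4 Pfkfb2 by 0.05, without control animal 1 Slc2a2 by 0.12, and Pklr by 0.07 without exposed animal 3 and 0.09 without control animal 2. With RNA quality as a covariate Me2 differed by 0.15 and Rpia by 0.06.

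Of 19 regulators of lipogenesis 6 were higher and 13 lower, led by Srebf2, the SREBP of cholesterol synthesis, at 0.24 ± 0.12 (SE), Mbtps2, a protease that releases SREBPs from the membrane, at -0.12 ± 0.08 and Txnip, a ChREBP target, at 0.13 ± 0.09. Of 17 fasting genes 5 were higher and 12 lower, with a median difference of -0.05. They were led by Sds, which degrades serine, at -0.55 ± 0.19, Lpin1, a phosphatidate phosphatase, at -0.38 ± 0.17 and the coactivator Ppargc1a at 0.16 ± 0.10. Lpin1 differed by -0.24 without control animal 1, and without exposed animal 4 Mbtps2 differed by -0.06 and Txnip by 0.08. Per animal, with group means removed, the mean of the fasting list had r = -0.53 with the mean of the 10 genes over the 10 livers, a description of points that share their arrays. Genes that vary most weigh most in both means. Taken singly, and against Fasn alone in place of the mean of the 10 genes, the 17 fasting genes had a median r of 0.0037. These values ran from -0.61 for Fgf21 to 0.54 for Pc. Of 16 genes of cholesterol synthesis 7 were higher and 9 lower, with r = 0.03 to the mean of the 10 genes. Nsdhl differed by 0.12 ± 0.08, Fdft1 by 0.10 ± 0.11 and Lss by -0.20 ± 0.22, all enzymes of the sterol route. Control animal 4 was the lowest liver for Nsdhl, at 11.57 against a control mean of 11.81, and for Fdft1, at 10.30 against 10.68. It was the highest for Lss, at 8.64 against 7.81. Each of these values pulls its difference away from 0.

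Of 12 clock genes 6 were higher and 6 lower, led by Clock at -0.22 ± 0.11 (SE), Bmal1 at -0.53 ± 0.30 and Cry1 at -0.28 ± 0.18. Dbp of the same list was higher, at 0.75 ± 0.67. Exposed animal 5 was the lowest liver for Clock, at 7.36 against an exposed mean of 7.73, and for Bmal1, at 6.07 against 6.99. For Cry1 the lowest was exposed animal 4, at 6.32 against 6.72. For Dbp it was control animal 1, at 5.80 against a control mean of 7.45. Each of these values pulls its difference away from 0. The mean of the list had r = 0.09 with the mean of the 10 genes. That mean joins genes that differed in opposite directions. Neither it nor the count therefore describes the phase of the clock, which was not tested. Markers of other cells were followed beside the differences above. Of 8 fat cell markers 7 were higher in exposed livers, with list means of 5.77 to 6.02 in exposed and 5.76 to 5.91 in control livers, and their mean had r = -0.46 with that of the 10 genes. All 10 measured Kupffer cell and macrophage markers were higher in exposed livers, with list means of 8.47 to 9.39 in exposed and 8.17 to 9.30 in control livers. Control animal 5, which had the highest 3' to 5' ratio at 0.73, the direction of poorer RNA, was the lowest liver for 9 of these 10. Without it Aif1 differed by 0.13 in place of 0.34, Cd5l by 0.16 in place of 0.36 and Clec4f by 0.03 in place of 0.22. Of 10 lymphocyte markers 9 were higher, with list means of 4.99 to 5.48 in exposed and 4.97 to 5.35 in control livers, and 3 of the 10 lay above the median probe set. The means of both lists had r of -0.09 and -0.13 with the mean of the 10 genes within groups, and their part in the exposed minus control differences was not tested.

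Across the other 9656 named genes above the median probe set, the closest to the mean deviation of the 10 genes were Capn15 (r = 0.96), Ube2g1 (0.92), Dtwd2 (0.92), LOC102555644, Mgat1, Casd1 and LOC100911506 (0.90 each), Vps26b and Luc7l2 (0.89 each) and Ptprk (0.88). The most opposed were Relb and Lrrc4b (-0.93 each) and Scn10a, Csrnp2 and Necab2 (-0.92 each). They are the extremes of 9656 values over 10 livers, and no p is given. With each of the 10 genes scaled to the same variance, an alternative chosen after seeing the data, 6 of the 10 closest and 2 of the 5 most opposed were the same genes.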

How the data were processed

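The authors deposited log2 expression values per probe set; the submitters' processing notes name RMA and R 2.8.1. That the scale is log2 follows from its range, 2.19 to 15.0. RMA normalizes arrays to one another, which removes a shift shared by most genes. Of 31099 probe sets, 57 Affymetrix controls were left out. Names came from the platform annotation: 20826 probe sets named 1 gene, 436 several and 9780 none, and 20758 of the first were found in RefSeq (GRCr8), with 0 symbols changed.

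Exposed and control livers were compared with limma 3.58.1 in R 4.3.3 (lmFit, eBayes, two-sided, Benjamini-Hochberg over 31042 probe sets, threshold 0.05), tested on simulated data. Where a gene had several probe sets, the brightest on average stood for it. Correlations used values with group means removed (numpy 2.4.6, scipy 1.17.1). Named genes are the 10 genes, the fixed partner genes, up to 3 of each list by smallest p, and the 10 closest and 5 most opposed genes; some fixed partners are not reported here. The 10 genes and all lists were chosen with earlier results of these data known. Alternatives were quantile normalization, centring, a low-value filter, a replicate block, array weights, a trended robust prior, RNA quality as covariate, all probe sets averaged, group means kept, and leaving out each array. The number of arrays limits precision.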

Additional observations from a re-analysis of the deposited data

Results flagged for a closer look

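Among 72 groups of 5 values, covering the probe sets of the 10 genes and of the genes compared with Fasn, the mean level of the 10 genes and the RNA quality ratio, 6 held an animal whose gap to the others was large for the range of its group; about 1 in 20, or 4, is given by chance. For Acly, exposed animal 4 read 10.95, with the other exposed livers at 11.48 to 11.56. For the other Elovl6 probe set, control animal 4 read 4.79, with the other controls at 5.01 to 5.09. For the other Elovl5 probe set, control animal 5 read 10.59, with the other controls at 10.94 to 11.01. For Scd, exposed animal 3 read 13.34, with the other exposed livers at 12.76 to 12.88. For Acacb, exposed animal 2 read 5.69, with the other exposed livers at 5.92 to 5.99. For Igfbp1, control animal 4 read 8.35, with the other controls at 9.85 to 9.99.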

How the results depend on the processing

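Across 18 alternative settings, 344 of 348 values of the exposed minus control differences of the 20 probe sets kept their sign and 0 passed the threshold, with a smallest limma adjusted p of 0.746. The 4 that turned did so when 1 animal was left out: over such settings Me1 ranged from -0.0286 to 0.17 and its other probe set from -0.14 to 0.15, and the other Elovl6 probe set from -0.0273 to 0.28. Over all probe sets the count past the threshold was 0 to 1 when 1 animal was left out (1 without exposed animal 1, a probe set of Mx2, named after its values were seen). The median r over gene pairs was 0.23 to 0.42, lowest without exposed animal 3; without Pnpla3, a setting chosen after seeing the data, it was 0.37. With 1 animal left out, r with Fasn ranged from -0.25 to 0.55 for Pklr, -0.094 to 0.75 for Scd, -0.27 to 0.27 for Acacb, -0.14 to 0.17 for Insig1, -0.35 to 0.22 for Pck1, -0.26 to 0.25 for Igfbp1, -0.0921 to 0.24 for Dbp and -0.60 to 0.12 for Adipoq, and with group means kept it was -0.16 for Pck1. The cause of these shifts was not tested. Deviations of same-numbered animals correlated between -0.07 and 0.09, so the numbers were not taken to pair the animals. An order that single genes share with the numbers was not tested. Dbp rose from 5.80 in control animal 1 to 9.34 in control animal 5. In exposed livers it ran from 7.28 in animal 1 and 6.79 in animal 2 to 9.47 in animal 5. With a replicate block 0 probe sets passed and the Acly difference stayed 0.32 (limma adjusted p 0.894).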
